A study of Homo sapiens with 9 samples.

Results

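The genes described here encode the heat shock proteins, the DNAJ cochaperones and the chaperonin CCT. They are the protein-coding genes whose symbols begin with HSPA or HSPB, with DNAJA, DNAJB or DNAJC, or with CCT, each followed by a digit, together with HSPD1, HSPE1, HSPH1, HSP90AA1, HSP90AB1, HSP90B1 and TCP1. The rule uses names and no measured value, and it finds 85 of the 58735 genes counted. They have 84 symbols, because HSPA14 stands for 2 overlapping loci, and 2 of them are readthrough loci. By family, 45 are DNAJ genes (4 DNAJA, 12 DNAJB, 29 DNAJC), 13 HSP70, 3 HSP110, 3 HSP90, 2 the mitochondrial chaperonin and its lid, 10 CCT and 9 small heat shock proteins. RNA came from MIA PaCa-2, an established human pancreatic cancer cell line, with the same genotype label (WT) in all groups. The cells had been kept for 24 h in 1 μM SCH772984, an inhibitor of ERK1/2, in 1 μM compound 1, an inhibitor of TBK1 and IKKε, or in 0.1% DMSO, the vehicle. There were 3 libraries per treatment, all from this line. The labels do not say that replicates were separate cultures, so p-values measure the spread between these libraries, which may be technical.

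Chaperones bind unfolded or partly folded proteins and help them to reach or keep their structure. HSP70 proteins do this in cycles of ATP hydrolysis, in which DNAJ proteins bring the client and start hydrolysis, while HSP110 proteins release the nucleotide. HSP90 acts later on clients such as kinases and steroid receptors, and CCT, a ring of related subunits, encloses actin, tubulin and other cytosolic proteins. Mitochondria and the endoplasmic reticulum (ER) hold chaperones of their own. In the cytosol many of these genes are activated by HSF1 through heat shock elements, and in the ER by the unfolded protein response through ER stress elements. Cancer cells are known for high levels of several of them.

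Total counts ranged from 9464432 to 10286223 in the DMSO libraries, from 9652741 to 9840769 with compound 1 and from 11056977 to 13887859 with SCH772984. Levels are given as CPM, the share of the library's counts after TMM scaling, and levels of different genes are compared only per kb of exon. Compound 1 replicate 1 stood apart from its group, with a chi-square per degree of freedom of 11.1 and 8.29 against the other two replicates, which differed from each other by 2.78. All of these values exceed the sampling noise, so each library counted as a separate sample. The keratins KRT8 and KRT18 and the filament gene VIM, which these cells express, were lower with SCH772984 than with DMSO, KRT8 by a log2 fold change of -1.69 (means of 2490 and 773 CPM), KRT18 by -2.40 (881 and 167 CPM) and VIM by -0.23 (2480 and 2120 CPM). PTPRC, CPA1 and INS had 0 counts in all 9 libraries, PECAM1 had 0 to 1, and COL1A1 had 1 to 4 with DMSO and 28 to 48 with SCH772984. The part of these changes in the results was not tested. DUSP6, a target of ERK, was counted 25 to 51 times with DMSO, 34 to 47 times with compound 1 and 0 to 1 times with SCH772984. In bulk RNA, fewer cells that express a gene and less of its RNA per cell cannot be told apart. All values are of RNA, and protein levels, which may differ, are not in these data.

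Since heat shock and ER stress elements are the best known control elements of these genes, the 250 bases before the RefSeq start (GRCh38.p14) were searched for both, on both strands, and 74 of the 84 symbols had a promoter sequence. A heat shock element of 2 units was spelled GAANNTTC or TTCNNGAA, and one of 3 units is one of these overlapping the other by 3 bases. An ER stress element was spelled as CCAAT and CCACG with 9 bases between them, or CGTGG and ATTGG with the same gap. A promoter with a 3-unit heat shock element also counts for the 2-unit element it contains. The 3-unit heat shock element stood in 3 of the 74 promoters (4.05%) and in 0.441% of all 35116 promoters. The genes were HSPA8, with 2 such elements, DNAJB6 and HSPA6. The 2-unit element stood in 15 of 74 (20.3%) and in 11.6% of all, and the ER stress element in 2 of 74 (2.7%), HSPA5 and HSP90B1, and in 0.074% of all. The windows of 8 genes are printed 5′ to 3′ with the longest matches in capitals. HSPA8 (chr11:123062137-123062386, minus strand) and DNAJB6 (chr7:157336754-157337003, plus strand) are shown for the 3-unit element. HSPA1A (chr6:31815293-31815542, plus) and HSPA1B (chr6:31827488-31827737, plus), the near-identical inducible HSP70 genes, are shown for the 2-unit element. HSPA5 (chr9:125241344-125241593, minus) and HSP90B1 (chr12:103930160-103930409, plus) are shown for the ER stress element. HSPA2 (chr14:64540491-64540740, plus) and DNAJB2 (chr2:219279116-219279365, plus) are shown because they rose most with SCH772984, and neither motif was found in them, which says only that these letters are not in the window. For each of these genes except HSPA5, GENCODE 29 also holds transcripts that start further upstream.
HSPA8: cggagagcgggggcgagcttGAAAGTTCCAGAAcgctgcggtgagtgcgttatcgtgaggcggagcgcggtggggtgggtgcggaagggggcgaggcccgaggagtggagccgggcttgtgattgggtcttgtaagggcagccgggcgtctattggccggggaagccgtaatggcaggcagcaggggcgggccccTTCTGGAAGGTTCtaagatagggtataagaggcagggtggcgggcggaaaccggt
DNAJB6: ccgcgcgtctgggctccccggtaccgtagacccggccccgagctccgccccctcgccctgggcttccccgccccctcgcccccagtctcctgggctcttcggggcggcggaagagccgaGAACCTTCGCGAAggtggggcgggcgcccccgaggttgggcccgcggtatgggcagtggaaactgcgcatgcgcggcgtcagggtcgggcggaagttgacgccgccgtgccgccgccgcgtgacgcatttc
HSPA1A: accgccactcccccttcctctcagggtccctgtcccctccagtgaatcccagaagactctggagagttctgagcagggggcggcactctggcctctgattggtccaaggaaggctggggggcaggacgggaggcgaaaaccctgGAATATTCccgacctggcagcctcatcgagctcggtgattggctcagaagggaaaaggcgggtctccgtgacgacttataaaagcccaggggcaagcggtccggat
HSPA1B: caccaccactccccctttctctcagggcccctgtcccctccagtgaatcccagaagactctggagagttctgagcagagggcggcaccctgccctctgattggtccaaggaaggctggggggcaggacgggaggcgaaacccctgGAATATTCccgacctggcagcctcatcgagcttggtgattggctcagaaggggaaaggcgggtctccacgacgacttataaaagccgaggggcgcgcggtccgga
HSPA5: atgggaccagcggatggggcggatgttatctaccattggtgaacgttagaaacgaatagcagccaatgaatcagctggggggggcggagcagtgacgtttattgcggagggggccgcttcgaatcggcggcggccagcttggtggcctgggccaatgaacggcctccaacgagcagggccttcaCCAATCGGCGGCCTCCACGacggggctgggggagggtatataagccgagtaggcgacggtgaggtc
HSP90B1: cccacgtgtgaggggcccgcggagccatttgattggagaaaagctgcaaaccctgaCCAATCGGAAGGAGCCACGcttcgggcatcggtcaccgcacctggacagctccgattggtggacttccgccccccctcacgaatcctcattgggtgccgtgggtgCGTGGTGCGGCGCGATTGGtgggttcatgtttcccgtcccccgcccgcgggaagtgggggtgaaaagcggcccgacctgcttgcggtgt
HSPA2: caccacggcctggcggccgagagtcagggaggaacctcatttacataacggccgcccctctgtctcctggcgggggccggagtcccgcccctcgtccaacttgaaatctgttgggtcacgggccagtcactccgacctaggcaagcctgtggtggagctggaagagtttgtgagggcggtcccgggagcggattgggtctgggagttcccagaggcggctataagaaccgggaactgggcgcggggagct
DNAJB2: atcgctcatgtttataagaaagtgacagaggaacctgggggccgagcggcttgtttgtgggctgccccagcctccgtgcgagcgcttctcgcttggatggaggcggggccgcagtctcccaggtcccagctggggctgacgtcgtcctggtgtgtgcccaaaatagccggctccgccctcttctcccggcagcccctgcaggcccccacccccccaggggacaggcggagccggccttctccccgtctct

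A match is a description of letters and not of a bound site. In the HSPA8 window the 3-unit elements lie 55 to 43 and 230 to 218 bases before the start, and in that of DNAJB6 131 to 119 bases. In those of HSPA1A and HSPA1B the 2-unit element is the same 8 letters, 106 to 99 and 105 to 98 bases before the start. Of the promoters of genes lower with SCH772984, 6 of 37 held the 2-unit element (16.2%), and of those higher 3 of 17 (17.6%), namely CCT6B, DNAJC15 and HSPB1. Both genes with an ER stress element, HSPA5 and HSP90B1, were among the lower genes.

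With SCH772984, transcripts of the abundant folding machinery of the cytosol and of mitochondria were lower than with DMSO, while several DNAJ genes of low expression were higher. Of the 85 genes, 69 had enough counts to be tested. After Benjamini-Hochberg adjustment over all genes (edgeR), 40 were lower and 19 were higher, and 10 did not pass. In the whole table of 13834 tested genes 35.5% were lower and 37.2% higher, so that 58% of the chaperone genes against 35.5% of all genes were lower. Their median log2 fold change was -0.41, against 0.03 over all genes. HSPA2, DNAJC28 and HSPA12B, and 1356 genes in all, passed the filter on low counts only through the SCH772984 libraries, and HSPA1L, one of 270 genes, only through those of DMSO. HSPA2 and DNAJC28 are among the higher genes. With genes chosen from the DMSO and compound 1 libraries alone, a choice made after seeing the data, 19 of 68 chaperone genes were higher and 39 lower (median -0.37), against 36.3% and 35.2% of 12849 genes. Past the threshold and 2-fold or more in the full set, 16 were lower and 8 higher, where 10.6% and 18.2% of all genes were. The 3 libraries of SCH772984 lay below all 3 of DMSO for 41 of the tested genes and above them for 19, against 36.3% and 38% of all genes. Summed over the 85 genes, the level was 30980 ± 1490 CPM with DMSO (SD, n = 3), 29960 ± 547 with compound 1 and 17340 ± 1220 with SCH772984, a ratio of 0.56 for SCH772984 to DMSO. Their share of all counts was 2.82% to 3.03% with DMSO, 2.88% to 2.96% with compound 1 and 1.72% to 1.96% with SCH772984. Scaling by library size alone shifted the median over all genes by 0.17 and turned the calls in the whole table from 5150 higher and 4916 lower to 6242 and 3911. For the chaperone genes it gave 23 higher and 37 lower and a median of -0.24. The values here are relative to TMM scaling.

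**Figure D1:**
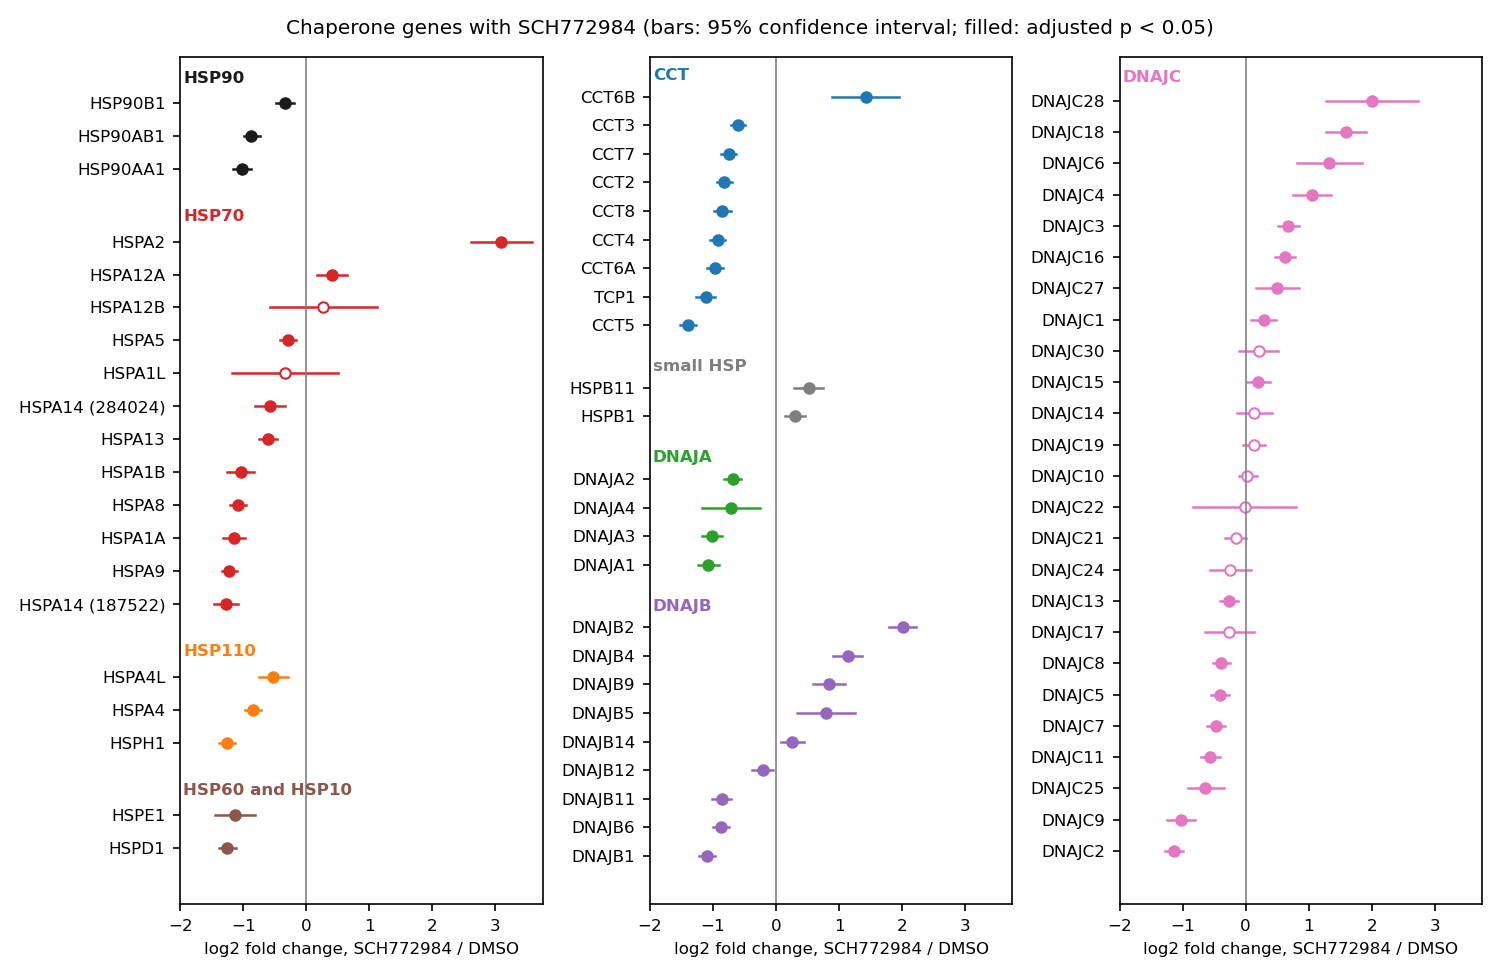
Log2 fold change of the 69 tested chaperone genes between SCH772984 and DMSO (3 libraries each), grouped by family and ordered within it. Points are edgeR estimates, bars 95% confidence intervals, and filled points passed an adjusted p of 0.05. All genes of the HSP90, HSP110, HSP60 and HSP10, and DNAJA families lie below 0, while DNAJB and DNAJC genes lie on both sides.

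The families differed in how many members moved each way. All 3 HSP90 genes were lower, with a median log2 fold change of -0.87, as were all 3 HSP110 genes (-0.85), both mitochondrial chaperonin genes (-1.19) and all 4 DNAJA genes (-0.87). Of 9 tested CCT genes 8 were lower and 1 higher, with a median of -0.85, and of 12 HSP70 genes 8 were lower and 2 higher, with a median of -0.59. The DNAJB family had 4 lower and 5 higher genes among 9 (median 0.26), and the DNAJC family 8 lower and 9 higher among 25 (median 0.03). Both tested genes grouped here as small heat shock proteins, HSPB1 and HSPB11, were higher. Outside the DNAJ families 24 of 31 genes were lower and 5 higher, and within them 16 of 38 were lower and 14 higher. By compartment, as assigned by hand, 25 of 36 tested cytosolic genes were lower and 7 higher, with a median of -0.78. In mitochondria 5 of 8 were lower and 1 higher (-0.79), in the nucleus 2 of 3 were lower, in the ER 5 of 12 were lower and 5 higher (0.09), and among genes of other places 3 of 10 were lower and 6 higher (0.51). Families and compartments were assigned with earlier results of these data known, and differences between them were not tested.

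HSP90 contributed the most RNA of these families. HSP90AA1, the stress-inducible cytosolic HSP90, had 6780, 6780 and 5780 CPM in the DMSO libraries and 3390, 3370 and 2820 CPM with SCH772984. HSP90AB1, the constitutive cytosolic form, had 4800, 4710 and 4580 CPM with DMSO and 2750, 2580 and 2430 CPM with SCH772984. In both genes every SCH772984 library lay far below every DMSO library, and the log2 fold changes were -1.02 (95% interval -1.16 to -0.88, adjusted p = 3.54e-15) and -0.87 (-0.99 to -0.74, 3.72e-17). Per kb of exon HSP90AB1 had the highest DMSO level of all the chaperone genes, at 1580 ± 37.7 CPM per kb, ahead of HSP90AA1 at 1230 ± 111. The ER form HSP90B1, also known as GRP94, had 938, 903 and 843 CPM with DMSO and 756, 761 and 614 CPM with SCH772984. It fell less than the cytosolic forms, by 0.34 on the log2 scale (interval -0.48 to -0.20, adjusted p = 3.37e-05), and its interval does not reach theirs. In GRCh38, HSP90AA1 occupies bases 102080738 to 102139699 of chromosome 14 and HSP90AB1 bases 44246166 to 44253888 of chromosome 6. Exons of WDR20 on the opposite strand cover 3.8% of the exon bases of HSP90AA1.

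The abundant HSP70 genes of the cytosol, the mitochondria and the ER were all lower, constitutive and inducible forms alike. HSPA8, the constitutive cytosolic HSP70 with 2 of the 3-unit elements printed above, had 3470, 3520 and 3210 CPM with DMSO and 1730, 1610 and 1480 CPM with SCH772984. It fell by 1.08 on the log2 scale (SE 0.063, adjusted p = 4.84e-20), and no SCH772984 library came near the DMSO range. HSPA9, the mitochondrial HSP70 or mortalin, went from 1190, 1220 and 1180 CPM to 537, 524 and 489 CPM, a log2 fold change of -1.22 (SE 0.059, adjusted p = 9.18e-23). BiP, encoded by HSPA5, is the HSP70 of the ER. It had 1410, 1360 and 1260 CPM with DMSO and 1180, 1130 and 990 CPM with SCH772984. The groups do not overlap, but the change was small, at -0.29 (SE 0.063, adjusted p = 7.66e-05), and with scaling by library size alone it was -0.12 and no longer passed (adjusted p = 0.0801). HSPA13, a microsomal HSP70, fell by 0.60 (adjusted p = 4.38e-10).

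HSPA1A and HSPA1B encode the same stress-inducible HSP70 from neighbouring genes on chromosome 6, at 31815464 to 31817946 and 31827735 to 31830255. Their sequences are so alike that 69.3% of the 75-base words of HSPA1A occur in HSPA1B and 70.1% of those of HSPA1B in HSPA1A. The split of reads between them is therefore uncertain, and reads that fit both may be missing from their levels. Exons of AL671762.1 on the same strand cover 36.5% of the exon bases of HSPA1B. HSPA1A had 93.3, 82 and 71.4 CPM with DMSO, 85.8, 69.1 and 64.5 CPM with compound 1, and 38.3, 34.7 and 38.6 CPM with SCH772984. HSPA1B had 60.1, 45.4 and 44.1 CPM with DMSO, 67.8, 46.8 and 41.9 CPM with compound 1, and 26, 23.9 and 23.4 CPM with SCH772984. Both were lower with SCH772984 in every library, at log2 fold changes of -1.15 (SE 0.087) and -1.04 (SE 0.102), and these did not differ beyond their intervals. At 33.1 ± 4.42 and 19.8 ± 3.52 CPM per kb with DMSO, the inducible genes stood far below HSPA8 at 701 ± 35. HSPA6, a strictly inducible HSP70 with a 3-unit element in its promoter, had at most 16 counts in any library and was not tested.

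Of the remaining HSP70 genes, HSPA14 encodes the ribosome-bound member that pairs with DNAJC2. Its 2 loci share exon sequence, and 17.4% of the exon bases of the first lie in the second. The first (ENSG00000187522) went from 52.3, 48.8 and 48.9 CPM to 19, 23 and 20.3 CPM, a log2 fold change of -1.27 (SE 0.096), and the second (ENSG00000284024) fell by 0.58 (SE 0.119). DNAJC2, the ribosome-associated J protein partner, fell by 1.14 (SE 0.072) from 149, 159 and 147 CPM to 68.4, 75.5 and 64 CPM, so both members of this pair were lower in every library.

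HSPA2 moved the other way and by the most of all 69 genes. This HSP70 is known for its high expression in testis, where sperm formation needs it. It had 9, 11 and 15 counts in the DMSO libraries, 24, 18 and 15 with compound 1 and 137, 133 and 148 with SCH772984. All SCH772984 libraries stood well above the other 6. The gene passed the filter only through them, and the log2 fold change was 3.09 (interval 2.61 to 3.58, adjusted p = 1.49e-15). Over genes chosen from the DMSO and compound 1 libraries alone it was 3.16 (SE 0.240, adjusted p = 6.4e-16). Even so its level with SCH772984 was 1.88 ± 0.138 CPM per kb, below that of HSPA1B. HSPA12A, a distant HSP70 relative, rose by 0.41 (SE 0.121, adjusted p = 0.00247). HSPA12B and the testis gene HSPA1L, at 0.27 (SE 0.421) and -0.34 (SE 0.413), had few counts and intervals that reach from -0.58 to 1.12 and from -1.17 to 0.50.

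The nucleotide exchange factors of the HSP110 family were lower as well. HSPH1 (HSP105) had 737, 729 and 654 CPM with DMSO and 320, 300 and 267 CPM with SCH772984, a log2 fold change of -1.26 (SE 0.065, adjusted p = 3.8e-21). HSPA4 went from 675, 675 and 640 CPM to 405, 371 and 337 CPM (-0.85, SE 0.063). HSPA4L, far lower at 2.46 ± 0.115 CPM per kb with DMSO, fell by 0.52 (SE 0.115). None of these groups overlapped.

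RNA of the mitochondrial chaperonin was lower for both of its parts. HSPD1 encodes the HSP60 ring and HSPE1 its HSP10 lid, from genes that lie head to head on chromosome 2 (197486581 to 197516737 on the minus strand and 197499994 to 197503457 on the plus strand). HSPD1 had 1780, 1770 and 1630 CPM with DMSO and 804, 744 and 632 CPM with SCH772984, and HSPE1 had 166, 171 and 176 CPM with DMSO and 90, 86.4 and 60.3 CPM with SCH772984. The log2 fold changes were -1.26 (SE 0.068, adjusted p = 1.78e-18) and -1.13 (SE 0.136, adjusted p = 7.92e-05). HSPE1 was the more variable, since SCH772984 replicate 3 lay well below the other two. The genes share 281 exon bases on opposite strands, 14.2% of the exon bases of HSPE1, and 9.7% of these overlap the readthrough gene HSPE1-MOB4.

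**Figure D2:**
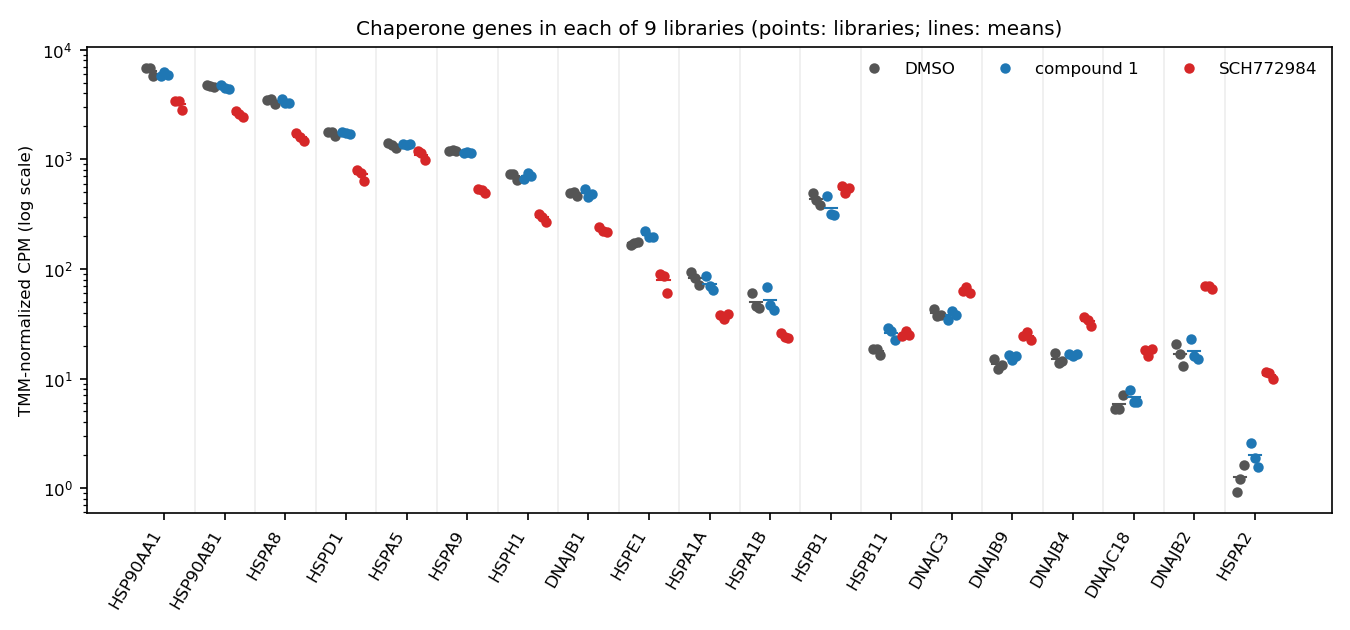
TMM-normalized CPM on a log axis for 19 chaperone genes in the 3 DMSO, 3 compound 1 and 3 SCH772984 libraries, with a line at each group's mean. From HSP90AA1 to HSPA1B the SCH772984 points lie below the other 6, from HSPB11 to HSPA2 they lie above those of DMSO, and HSPB1 shows overlapping groups.

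RNA of all 8 subunits of the CCT ring fell with SCH772984, and by unequal amounts. CCT5, the epsilon subunit, had 801, 830 and 775 CPM with DMSO and 328, 308 and 285 CPM with SCH772984, a log2 fold change of -1.39 (interval -1.52 to -1.27, adjusted p = 3.57e-24). TCP1, the alpha subunit or CCT1, went from 794, 794 and 697 CPM to 395, 356 and 310 CPM (-1.11, interval -1.26 to -0.97). CCT3, the gamma subunit, went from 1150, 1140 and 1110 CPM to 758, 726 and 765 CPM (-0.60, interval -0.72 to -0.49). The intervals of CCT5, TCP1 and CCT3 do not meet, while the neighbours CCT6A (-0.97), CCT4 (-0.92), CCT8 (-0.85), CCT2 (-0.82) and CCT7 (-0.75) differ by less than their intervals. Per kb of exon the subunits ranged with DMSO from 105 ± 3.01 CPM for CCT2 to 282 ± 4.56 for CCT3, and with SCH772984 from 52.6 ± 3.67 for CCT5 to 187 ± 5.12 for CCT3. With DMSO CCT5, at 137 ± 4.75, lay between TCP1 (155 ± 11.3) and CCT8 (136 ± 9.57) and within its spread of the latter, and with SCH772984 it was the lowest of the 8. The antisense gene AC012640.4 covers 30.1% of the exon bases of CCT5, and the strand setting of the counting is not given in the sources used here. CCT6B, a testis-type subunit that replaces CCT6A there, had 16, 16 and 19 counts with DMSO and 56, 59 and 77 with SCH772984, a rise of 1.43 on the log2 scale (SE 0.267, adjusted p = 7.3e-06). It remained scarce, at 1.14 ± 0.0599 CPM per kb against 97.8 ± 5.26 for CCT6A.

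**Figure D3:**
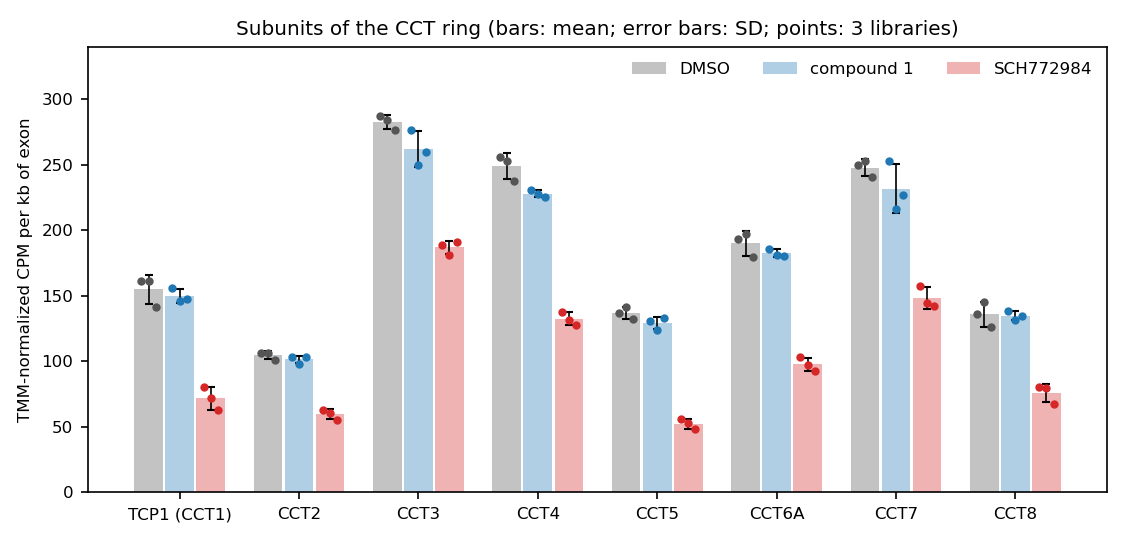
Levels of the 8 CCT ring subunits in CPM per kb of exon with DMSO, compound 1 and SCH772984. Bars are means, error bars SD and points the 3 libraries of each group. SCH772984 is below DMSO and compound 1 for every subunit, and the ratio to DMSO is lowest for CCT5 (52.6 against 137) and highest for CCT3 (187 against 282).

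Only 2 of the 9 small heat shock protein genes had enough counts for a test. HSPB1 (HSP27), which holds unfolded proteins without ATP, had 493, 426 and 381 CPM with DMSO and 576, 488 and 542 CPM with SCH772984. The groups overlap, since the second SCH772984 library lay below the first DMSO library, and the rise of 0.30 (SE 0.077, adjusted p = 0.0013) did not pass without SCH772984 replicate 3 (0.29, adjusted p = 0.0835) or with all 9 libraries in one fit (0.31, adjusted p = 0.0855). With the dependence of each library on gene length and GC content removed it was 0.04 (adjusted p = 0.774). HSPB11, known also as IFT25 and part of the transport machinery of cilia, rose by 0.52 (SE 0.115, adjusted p = 9.91e-05), from 18.4, 18.6 and 16.3 CPM to 24.2, 27.1 and 25.2 CPM.

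Of 12 tested cytosolic DNAJ genes 7 were lower and 3 higher, where 35.5% and 37.2% of all genes were. The lower ones of the DNAJA and DNAJB families are given here together with the mitochondrial DNAJA3. DNAJB1 (HSP40), the classical heat-inducible partner, had 497, 498 and 459 CPM with DMSO and 240, 223 and 219 CPM with SCH772984 (-1.10, SE 0.061, adjusted p = 1.75e-20). DNAJA1 went from 384, 386 and 340 CPM to 195, 186 and 149 CPM (-1.07, SE 0.080). DNAJA2, a close relative, fell by 0.68 (SE 0.066), DNAJA4 by 0.72 (SE 0.231), and the mitochondrial DNAJA3 (TID1) by 1.01 (SE 0.076). DNAJB6, which keeps polyglutamine proteins from aggregating and whose promoter holds a 3-unit element, went from 211, 215 and 208 CPM to 124, 112 and 113 CPM (-0.87, SE 0.065). For each of these genes the SCH772984 and DMSO libraries did not overlap.

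Other cytosolic DNAJB genes rose. DNAJB2, a J protein that binds ubiquitin and is best known from neurons, had 20.7, 16.6 and 12.9 CPM with DMSO, 22.7, 16 and 15 CPM with compound 1, and 69.3, 70.2 and 65.6 CPM with SCH772984. The SCH772984 libraries agree within a narrow range far above the other 6, and the log2 fold change was 2.02 (interval 1.80 to 2.23, adjusted p = 2.67e-19). DNAJB4, a relative of DNAJB1, had 168, 126 and 131 counts with DMSO and 436, 409 and 446 with SCH772984 (1.14, SE 0.115), and DNAJB5 rose by 0.80 (SE 0.227, adjusted p = 0.00174). DNAJB4 rose while its relative DNAJB1 fell, and DNAJB1 still stood higher, at 61.9 ± 2.98 against 8.87 ± 0.862 CPM per kb with SCH772984.

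In the ER the cochaperones of BiP did not move together. DNAJB9 (ERdj4), which binds BiP and the stress sensor IRE1, had 15.2, 12.1 and 13.2 CPM with DMSO and 24.3, 26.3 and 22.6 CPM with SCH772984, a rise of 0.84 (interval 0.59 to 1.09, adjusted p = 8.88e-08). DNAJC3 (p58IPK) went from 43.4, 36.9 and 37.8 CPM to 62.3, 68.3 and 59.8 CPM, a rise of 0.68 (SE 0.086, adjusted p = 1.76e-09). DNAJB11 (ERdj3), the soluble partner that brings secretory clients to BiP, fell from 139, 129 and 127 CPM to 72, 78.3 and 68.1 CPM (-0.86, SE 0.071, adjusted p = 1.08e-14). For these 3 genes the groups did not overlap, so that RNA of 2 BiP partners was higher and of 1 lower in every library. The membrane protein genes DNAJC16 and DNAJC1 rose by 0.62 (SE 0.082) and 0.29 (SE 0.100). DNAJC1 did not pass without DMSO replicate 3 (0.20, adjusted p = 0.101) or without SCH772984 replicate 1 (0.20, adjusted p = 0.0994). DNAJB12 and DNAJB14, paralogs that act in ER-associated degradation, were at -0.21 (adjusted p = 0.0232) and 0.26 (adjusted p = 0.00735), and each lost its call when SCH772984 replicate 1 was left out, at adjusted p values of 0.0668 and 0.0578. DNAJB14 also lost it with the dependence on gene length and GC content removed (0.17, adjusted p = 0.0501). DNAJB12 also lost it without DMSO replicate 3 (0.0546) and over genes chosen without the SCH772984 libraries (-0.14, adjusted p = 0.132). DNAJC10 (ERdj5), a disulfide reductase, was at 0.03 (interval -0.11 to 0.18), and DNAJC14, of whose exon bases opposite-strand exons cover 34.9%, at 0.14 (SE 0.138).

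The 4 DNAJC genes assigned by hand to mitochondria moved less than HSPD1, HSPE1, HSPA9 and DNAJA3. DNAJC11, a protein of the inner membrane organizing system, fell by 0.56 (SE 0.075), and exons of THAP3 on the opposite strand cover 27.9% of its exon bases. DNAJC19, a subunit of the import motor, was at 0.13 (interval -0.04 to 0.30), or 0.20 (adjusted p = 0.0317) over genes chosen without the SCH772984 libraries, and DNAJC30 at 0.21 (SE 0.150). DNAJC15, a paralog of DNAJC19, was at 0.20 (adjusted p = 0.0409), and this call was lost without DMSO replicate 1, 2 or 3, or SCH772984 replicate 2 or 3, at adjusted p values of 0.0581 to 0.261. It was also lost with no filter (adjusted p = 0.16), with all 9 libraries in 1 fit (0.0579) and with DESeq2 (0.091).

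In the nucleus DNAJC9, which chaperones histones H3 and H4, fell by 1.03 (SE 0.111) from 31.2, 35.2 and 32.3 CPM to 15.2, 15.4 and 17.7 CPM. DNAJC8, a splicing factor and the DNAJC gene with the highest level per kb (54 ± 3.07 CPM with DMSO), fell by 0.39 (SE 0.067), and DNAJC17, also of the spliceosome, was at -0.26 (SE 0.196). Exons on the opposite strand cover 28.6% of the exon bases of DNAJC9 and 26.1% of those of DNAJC17. The cytosolic DNAJC7, which links HSP70 to HSP90, fell by 0.47 (SE 0.071), and DNAJC21, a factor of ribosome assembly, was at -0.16 (SE 0.079). DNAJC24, which takes part in making diphthamide, was at -0.24 (SE 0.159).

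Several DNAJC genes of vesicles or of little known function rose from low levels. DNAJC18, a membrane J protein, had 51, 48 and 64 counts with DMSO and 220, 190 and 279 with SCH772984 (1.59, SE 0.159). DNAJC28 had 8, 8 and 6 counts with DMSO and 31, 40 and 54 with SCH772984 (2.01, SE 0.363). It passed the filter only through SCH772984, where it is high, so that it had to differ to be tested, and with no filter it was at 1.97 (SE 0.377, adjusted p = 8.41e-07). DNAJC4 had 90, 84 and 72 against 187, 204 and 330 (1.06, SE 0.151). DNAJC6, the clathrin-uncoating protein auxilin, had 26, 19 and 15 counts with DMSO and 63, 63 and 84 with SCH772984 (1.32, SE 0.256). In all 4 genes the lowest SCH772984 library exceeded the highest DMSO library. DNAJC27 rose by 0.50 (SE 0.170, adjusted p = 0.00768), which without DMSO replicate 1 was 0.39 (adjusted p = 0.0724). DNAJC5, the cysteine string protein of secretory vesicles, fell by 0.41 (SE 0.068), DNAJC13, an endosomal protein, by 0.26 (SE 0.070), and DNAJC25 by 0.64 (SE 0.140). DNAJC22, a membrane J protein with 10 to 16 counts in every library, was at -0.01 (interval -0.83 to 0.80). With scaling by library size alone DNAJC13 and DNAJB12 no longer passed, at -0.09 (adjusted p = 0.238) and -0.03 (adjusted p = 0.719).

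The direction of change went with the level of the gene, here as in the whole table. Levels were taken from the compound 1 libraries, which are not part of this comparison, but the filter on low counts did use it, and scarce genes that passed only through SCH772984 had to be higher. Of the 23 chaperone genes with the highest level per kb (38 to 1520 CPM per kb), 22 were lower and 1, HSPB1, was higher. Of the middle 23, 15 were lower and 5 higher, and of the lowest 23 (0.226 to 5.11 CPM per kb), 3 were lower and 13 higher. With genes chosen from the DMSO and compound 1 libraries alone, the same ranges held 22 lower and 1 higher of 23, 14 and 6 of 23, and 3 and 12 of 22. Over all tested genes in the same ranges of level, 72.2%, 53.5% and 16% were lower and 14.2%, 24.2% and 50.7% higher, and over genes chosen without SCH772984 68.2%, 48.9% and 16.9% lower and 16.1%, 26.9% and 48.3% higher. Over the genes chosen without SCH772984, Spearman's rho between level and log2 fold change was -0.70 for 68 chaperone genes and -0.427 for all 12849. Within the highest, middle and lowest range rho was 0.0781, -0.676 and -0.169 for the chaperone genes and 0.0571, -0.193 and -0.248 for all. These are correlations across genes, which share libraries and are not independent. With the genes that entered through SCH772984 included, rho over all ranges was -0.711 and -0.529, and that choice adds to a negative slope. The medians of the chaperone genes in the 3 ranges were -0.92, -0.47 and 0.41, beside -0.53, -0.26 and 0.47 for all genes. At high levels HSPA5, HSP90B1 and DNAJC8 fell by less than the median of all genes there, HSPB1 did not fall, and CCT5, HSPD1, HSPH1 and HSPA9 fell by more.

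**Figure D4:**
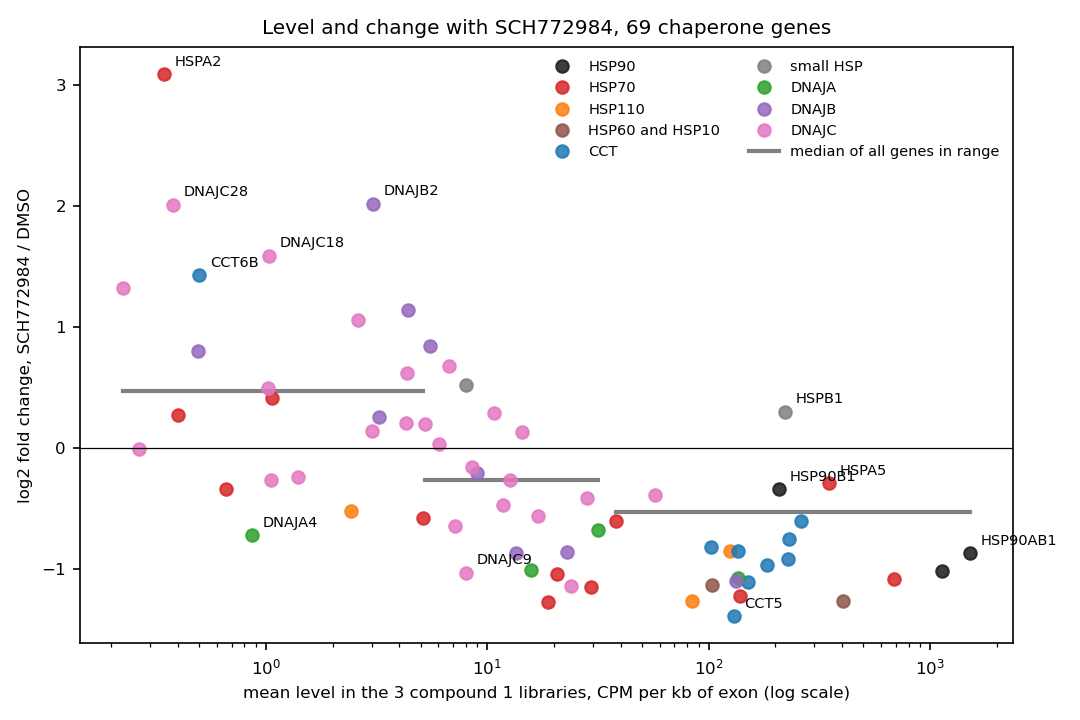
Log2 fold change with SCH772984 against the mean level in the 3 compound 1 libraries (CPM per kb of exon, log axis) for 69 chaperone genes, coloured by family, of which HSPA2, DNAJC28 and HSPA12B passed the filter only through SCH772984. Grey lines mark the median of all tested genes in the same range of level, at 0.47, -0.26 and -0.53 from low to high. Most chaperone genes of high level lie below the grey line, and HSPA2, DNAJB2 and DNAJC28 lie highest, at low level.

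Genes that work beside these chaperones were read from 6 lists written by hand with earlier results of these data known. Their counts describe these lists and are no independent support. Of 15 HSP90 cochaperones 11 were lower and 3 higher with SCH772984 (median -0.76). PTGES3 (p23) fell most, by 1.22 (SE 0.064), and UNC45A rose most, by 0.52 (SE 0.069). Of 8 prefoldin subunits and CCT cofactors 5 were lower and 0 higher (edgeR, adjusted or at an unadjusted p under 0.05). Among those 5, PFDN2 at -1.01 (SE 0.086) and PFDN1 at -0.39 (SE 0.074) were the extremes. Of 13 mitochondrial protein quality control genes 11 were lower and 1 higher (median -0.57), with the nucleotide exchange factor GRPEL2 at -1.72 (SE 0.104) and the protease SPG7 at 0.51 (SE 0.067). Of 10 HSP70 exchange factors and cofactors 5 were lower and 2 higher (median -0.30). Among them HSPBP1 was at -1.28 (SE 0.078), and BAG3, itself known as an HSF1 target, rose by 0.53 (SE 0.068). Of 21 genes of ER folding and the unfolded protein response 7 were lower and 7 higher (median 0.02), from SDF2L1 at -0.96 (SE 0.113) to SEL1L at 0.93 (SE 0.074). Of 4 heat shock factor genes, HSF1 fell by 0.73 (SE 0.073) from a mean of 110 to 66.4 CPM, HSBP1, which binds HSF1, fell by 0.19 (SE 0.070), HSF2 was at 0.02 (SE 0.107) and HSF4 rose by 1.89 (SE 0.195) from a mean of 3.31 to 12.4 CPM. These counts stand beside the 35.5% of all genes that were lower and the 37.2% that were higher.

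With compound 1 the chaperone genes stayed close to their DMSO levels. Of 68 tested genes 1 was higher and 0 were lower after adjustment, where 0.49% and 0.374% of all 12849 tested genes were. At an unadjusted p under 0.05, 3 were higher and 1 lower, against 7.35% and 7.69% of all genes. Their median log2 fold change was -0.02, and that of all genes was 0. Compound 1 libraries lay above all DMSO libraries for 5 genes and below for 6, against 10.3% and 10.6% of all genes. In the whole table, scaling by library size gave 85 higher and 25 lower calls in place of 63 and 48, with the same 1 and 0 chaperone genes. The sums over families were within 0.863 to 1.01 times those of DMSO. For the abundant members the intervals were narrow. HSPA8 was at -0.02 (interval -0.15 to 0.11), HSPD1 at 0.00 (-0.13 to 0.12), HSP90AB1 at -0.05 (-0.17 to 0.07) and HSPA5 at 0.03 (-0.10 to 0.16), so that changes of the size seen with SCH772984 in HSPA8, HSPD1 and HSP90AB1 lie outside them. For scarce genes they were wide, as for HSPA2 (0.67, interval -0.09 to 1.43).

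HSPB11 was the gene that passed. It had 179, 168 and 149 counts in the DMSO libraries and 268, 258 and 215 with compound 1, so all compound 1 libraries exceeded all DMSO libraries. The log2 fold change was 0.56 (SE 0.123, adjusted p = 0.0464). The call was lost without any single DMSO replicate or without compound 1 replicate 2 or 3, at adjusted p values of 0.0677 to 0.261, while the estimate stayed between 0.50 and 0.65. HSPB11, at bases 53916574 to 53945929 of chromosome 1 (GRCh38), shares none of its 75-base words with another gene. The next in order did not pass. HSPE1 was at 0.25 (SE 0.071, adjusted p = 0.106), with 166, 171 and 176 CPM with DMSO and 221, 195 and 194 CPM with compound 1. DNAJC19 was at 0.28 (SE 0.086, adjusted p = 0.141), HSPA12A at -0.35 (SE 0.162, adjusted p = 0.323) and CCT4 at -0.12 (SE 0.059, adjusted p = 0.335). The groups do not overlap for HSPE1, DNAJC19 or CCT4. With the dependence on gene length and GC content removed (edgeR), HSPE1 (0.21, adjusted p = 0.0362) and CCT4 (-0.17, adjusted p = 0.0478) did pass.

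Compound 1 replicate 1, the library that stood apart, carried much of the spread in this comparison. HSPB1 had 463 CPM in it and 315 and 311 CPM in the others, and HSPB1 was at -0.25 (SE 0.152, adjusted p = 0.49) with it and at -0.46 (SE 0.08, adjusted p = 0.00447) without it. Without this library 4 chaperone genes were higher, HSPB11 (0.48), DNAJB14 (0.27), DNAJC21 (0.25) and HSPE1 (0.19), and 4 were lower, HSPB1 (-0.46), HSPA1A (-0.29), CCT7 (-0.16) and CCT3 (-0.14). In the whole table leaving this library out raised the calls from 63 higher and 48 lower of 12849 genes to 453 and 798 of 13084. With all libraries kept and the replicate number as a block, HSPB1 was at -0.27 (adjusted p = 0.0273, edgeR). Across the partner lists 0 genes passed with compound 1 after adjustment in edgeR, and at an unadjusted p under 0.05 7 were higher and 4 lower of 71, beside 7.35% and 7.69% of all genes.

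**Figure D5:**
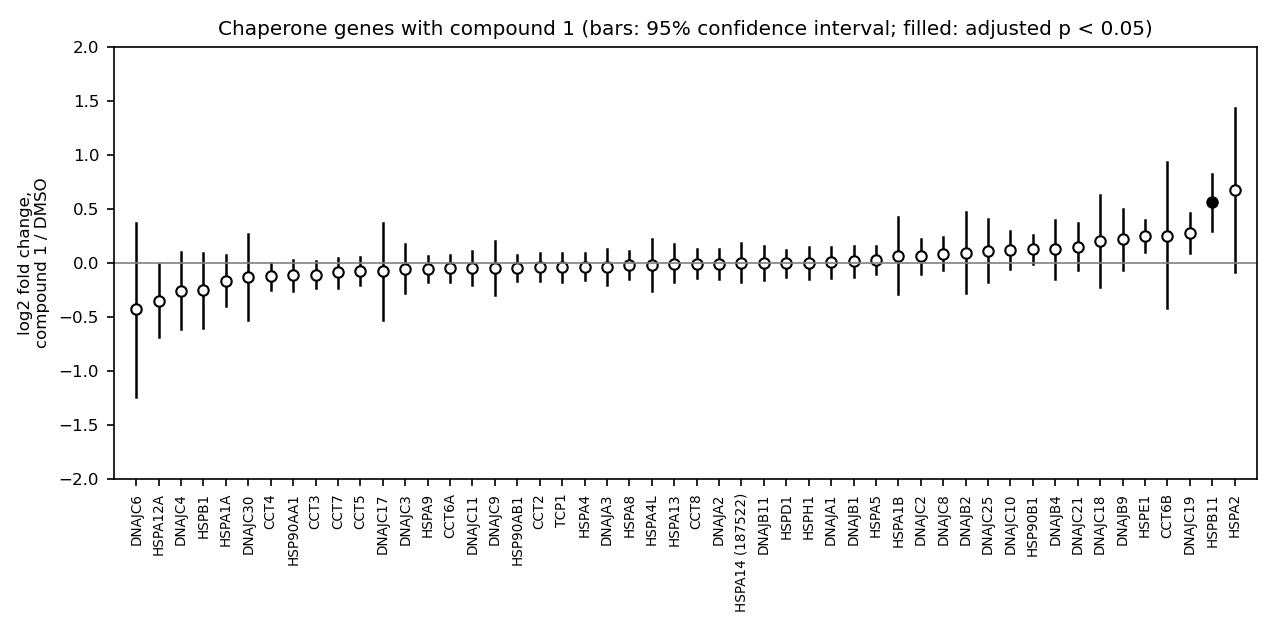
Log2 fold change between compound 1 and DMSO (3 libraries each) for the named chaperone genes, ordered by estimate. Points are edgeR estimates, bars 95% confidence intervals, and the filled point, HSPB11 at 0.56, passed an adjusted p of 0.05. Most intervals cross 0.

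SCH772984 and compound 1 were given at the same dose and time, and each was also set against the other directly. After adjustment 39 of the 69 tested genes were below their compound 1 level with SCH772984, 16 were above it, and 14 did not pass. In the whole table of 13863 genes 32.6% were lower and 33.7% higher. DNAJC6 and DNAJC28, both among the higher genes, and HSPA12B passed the filter only through the SCH772984 libraries, as did 1299 genes in all. With genes chosen from the DMSO and compound 1 libraries alone, 38 of 68 chaperone genes were lower and 16 higher, against 32% and 33.7% of all genes. There DNAJC21 no longer passed, DNAJC28 was not tested and DNAJC30 passed at 0.42 (adjusted p = 0.0363). The median was -0.46 for the chaperone genes and 0.03 for all. With scaling by library size alone the chaperone median was -0.32. Calls in the whole table then went from 4674 higher and 4519 lower to 5526 and 3736, and DNAJC5, DNAJC21 and HSPA14 (ENSG00000284024) no longer passed. Among the HSP90, HSP110, mitochondrial chaperonin and DNAJA genes all 12 were lower, as were the 8 CCT ring subunits. HSPE1 differed most of the lower genes, at -1.37 (SE 0.120), followed by CCT5 at -1.30 (SE 0.082) and HSPA14 (ENSG00000187522) at -1.26 (SE 0.109). HSPA2 was higher with SCH772984 by 2.43 (SE 0.223), DNAJB2 by 1.94 (SE 0.129) and DNAJC6 by 1.77 (SE 0.298). Over genes chosen without SCH772984 these were 2.50 (SE 0.222), 2.01 (SE 0.130) and 1.85 (SE 0.297). HSPB1 was higher by 0.56 (interval 0.30 to 0.82), with 463, 315 and 311 CPM with compound 1 and 576, 488 and 542 CPM with SCH772984, groups that do not overlap. HSPB11 was at -0.03 (interval -0.28 to 0.23), and DNAJC19 at -0.14 (-0.34 to 0.06).

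The 16 genes not tested had few or no counts. HSPB2, its readthrough with C11orf52, HSPB3, HSPB8, CCT8L2 and the readthrough of DNAJC25 and GNG10 had 0 counts in all 9 libraries. For HSPB3, HSPB8 and CCT8L2 this allows up to 3 counts per library. Exons of other genes on the same strand cover 53.9% of the exon bases of HSPB2, 99.2% of those of its readthrough and 100% of those of the DNAJC25 readthrough, where reads cannot be assigned to 1 gene and a count of 0 sets no limit. HSPB6, HSPB7, HSPB9, DNAJB7, DNAJB8, DNAJB13, DNAJC5B, DNAJC5G and DNAJC12 had at most 12 counts in any library. Of the 9 genes grouped here as small heat shock proteins, HSPB1 and HSPB11 alone passed the filter on low counts.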

How the data were processed

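RNA of 9 libraries of MIA PaCa-2 cells was analysed from the deposited table of counts, which holds whole reads per gene that the authors did not normalize. The submitters' processing notes name HISAT2 2.0.5, featureCounts 1.5.0-p3 and hg38. The strand setting is not given in the sources used here. Gene coordinates matched GENCODE 29 for 58724 of 58735 genes. The table's coordinates and gene lengths were used. Columns of no sample here numbered 0.

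Groups came from the treatment labels. The 3 comparisons used the quasi-likelihood test of edgeR 4.0.16 (R 4.3.3, limma 3.58.1) on the 6 libraries compared, with TMM factors and a filter of at least 10 counts in enough libraries and 15 in total. p-values were adjusted by Benjamini-Hochberg over all genes tested, with a threshold of 0.05, and intervals are 95%. Differences are log2 fold changes with their standard error (SE). The test was checked on simulated data with few changed genes, as many higher as lower. That check does not cover a comparison in which most genes change, as with SCH772984. Totals of 9464432 to 13887859 counts gave a median SE over all genes of 0.115 for SCH772984 and 0.119 for compound 1. Intervals and the floor of 3 counts cover counting error or the spread between libraries only.

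Members, families, compartments and partner lists were chosen or assigned by hand with earlier results of these data known. Genes named were those past 2-fold and the threshold with SCH772984, the highest per kb in each family, those past the threshold with compound 1 (or the 5 with the lowest p), the CCT ring, the extremes of each family and compartment, the paired HSPA1, HSPD1 and HSPE1, and HSP90 genes, and the passing extremes of each partner list. The remaining members are named so that each is accounted for, and HSF2 and HSBP1 because their list has 4 genes. Reads shared between genes were judged from 75-base words and exon overlaps in GENCODE 29. Promoters and their sequences are from RefSeq (GRCh38.p14).

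Alternatives were RLE factors, library size alone, no filter, all 9 libraries in 1 fit, the replicate number as a block, DESeq2 1.42.0, an unadjusted p, a 1.5-fold change, leaving out each library and, chosen after seeing the data, removal of the dependence of each library on length and GC content of genes (splines with 5 degrees of freedom), and a filter on the DMSO and compound 1 libraries alone.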

Additional observations from a re-analysis of the deposited data

How the results depend on the processing

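With SCH772984, between 17 and 23 chaperone genes were higher and between 37 and 41 lower under every alternative on normalization, filter, tool, fit or left-out library, against 19 and 40. In the whole table these gave 4664 to 6242 higher and 3911 to 5136 lower of 12849 to 27313 genes, against 5150 and 4916 of 13834. With a 1.5-fold change required, 12 were higher and 30 lower, against 27% and 21.7% of all genes. Of the 59 calls, 56 to 59 were kept under each alternative apart from the 1.5-fold change, and 0 changed sign. With compound 1 the counts were small and moved more. 1 gene was higher and 0 lower, and leaving out single libraries gave 0 to 4 higher and 0 to 4 lower. In the whole table leaving them out gave 5 to 453 higher and 3 to 798 lower of 13084 to 13164 genes. Removing the trend with length and GC content of genes, chosen after seeing the data, gave 2 higher and 1 lower, an unadjusted p gave 3 and 1, and a 1.5-fold change gave 0 higher. In the whole table removing the trend gave 234 higher and 225 lower of 12845 genes, and the replicate block gave 193 and 219 of 12849. The replicate block gave 1 higher and 1 lower, HSPB1 at -0.27 (adjusted p = 0.0273, edgeR), and changed no call with SCH772984. Same-numbered libraries correlated at -0.0787 to 0.107 in their deviations from the group means, and not every library correlated best with its own number, so the numbers were not taken as pairs.

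Estimates near 0 changed sign under some alternatives. With SCH772984 against DMSO, DNAJC21 was 0.02 with library size alone, and DNAJC10 was 0.00 with no filter, -0.03 to 0.08 with a library left out and -0.14 with the trend removed. With compound 1, HSPD1 was 0.03 with library size alone, 0.00 with the block and -0.04 to 0.02 with libraries left out, HSPA1B was -0.17 to 0.22 with libraries left out, and CCT8 was 0.02 with library size alone and -0.06 to 0.04 with libraries left out. Of SCH772984 against compound 1, HSPB11 was 0.11 with library size alone, 0.10 with the trend removed, 0.05 over genes chosen without the SCH772984 libraries and -0.15 to 0.05 with libraries left out, and DNAJC19 was 0.16 with the trend removed. The cause was not tested.

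Intervals were wide for scarce genes: that of HSPA12B with SCH772984 ran from -0.58 to 1.12, with 6, 7 and 21 counts in the DMSO libraries, while that of HSPA8 ran from -1.21 to -0.96. How much of this is depth and how much is spread between libraries was not tested.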

Other observations

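In the direct comparison of SCH772984 with compound 1, 11 of 15 HSP90 cochaperones were lower and 3 higher, and 6 of 8 prefoldin subunits and CCT cofactors were lower and 0 higher (edgeR, adjusted or at an unadjusted p under 0.05). Of 21 ER folding genes 7 were lower and 4 higher. Of all genes 32.6% were lower and 33.7% higher, and the ER list's share of lower genes was 33.3%.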
